A study of Homo sapiens with 14 samples.

Results

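Long noncoding RNAs that act in the nucleus or regulate other genes were followed through the making of pancreatic cells from human embryonic stem cells. The 8 members were picked by symbol: NEAT1, MALAT1, HOTAIRM1, KCNQ1OT1, MEG3, H19, GAS5 and SNHG1. They are 8 of the 60624 gene identifiers listed per library, and 8 of 16745 annotated as long noncoding RNA genes. They were chosen with the levels in ePP-P9 and ePP-P21 already known, so that contrast is given as a description with no test. RNA came from whole cells, so where in the cell an RNA lay was not measured.

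The 14 libraries fell into 9 groups, all from MEL1, 1 human embryonic stem cell line that carries a GFP reporter in its insulin gene. Batch 1 held 1 library each of hPSC (undifferentiated cells grown on feeder cells), DE (definitive endoderm), PP2 (pancreatic progenitors) and SC-β (β-like cells made without expansion). Batch 2 held 2 libraries each of ePP-P9 and ePP-P21, which are pancreatic progenitors kept in expansion culture (ePPs) until passage 9 or 21, and of ePP-β, the β-like cells that were derived from ePPs. Both ePP groups grew on feeder cells with EGF, bFGF, the TGFβ receptor inhibitor 616452 and I-BET151, an inhibitor of the BET bromodomain proteins that read acetylated histones. Both passages therefore carried the inhibitor. Time spent in it rose with passage, so length of exposure and passage cannot be told apart. Batch 3 held 2 libraries each of pancreatic progenitors kept for 7 days with DMSO, the solvent, or with 1 μM I-BET151, after earlier passages in the same medium without the inhibitor. Batches matched groups, so a level set across batches cannot be told apart from a batch difference, and 2 libraries of 1 group may be technical replicates, since the sources used here do not name separate cultures for them.

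A long noncoding RNA is a transcript with no known protein product, and its work is done by the RNA or by the act of transcribing it. NEAT1 is the scaffold of paraspeckles, nuclear bodies that form around its long isoform and hold RNA-binding proteins such as SFPQ and NONO. MALAT1 gathers in nuclear speckles, where splicing factors are stored. HOTAIRM1 is transcribed from within the HOXA cluster. GAS5 and SNHG1 are hosts of small nucleolar RNAs (snoRNAs): the snoRNAs are cut from their introns, and the spliced exons are known substrates of nonsense-mediated decay. MEG3, H19 and KCNQ1OT1 come from imprinted regions, where only the copy inherited from 1 parent is active. MEG3 and H19 are read from the maternal copy, beside the paternally expressed DLK1 and IGF2, and KCNQ1OT1 is the paternal antisense RNA in KCNQ1 that silences neighbours such as CDKN1C.

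5 of the 8 members lie on chromosome 11. NEAT1 (ENSG00000245532, GRCh38 chr11:65422774-65445540, plus strand) ends 52099 bases before the start of MALAT1 (ENSG00000251562, chr11:65497640-65508073, plus strand). H19 (ENSG00000130600, chr11:1995166-2004552), KCNQ1OT1 (ENSG00000269821, chr11:2597308-2700003) and SNHG1 (ENSG00000255717, chr11:62851978-62855953) lie on the minus strand. HOTAIRM1 (ENSG00000233429) is at chr7:27095647-27100265, MEG3 (ENSG00000214548) at chr14:100779410-100861031 and GAS5 (ENSG00000234741) at chr1:173858559-173868882. MALAT1 overlaps the antisense gene TALAM1, KCNQ1OT1 lies in KCNQ1, and GAS5 overlaps GAS5-AS1 and ZBTB37. The library kit does not mark strand, so reads shared with those or other overlapping genes cannot be told apart.

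Short genes annotated inside NEAT1 and MALAT1 were quantified under their own identifiers, and they gave further readings within the span of each gene. These readings come from the same libraries, so they are not independent of the gene value or of each other. The RNA sequences of the short genes are shown because the size of the NEAT1 difference turned on which reading was used. The 3 NEAT1 segments lie in the first part of the gene, which the short and the long isoform share. MIR612, a microRNA gene further along NEAT1, was quantified as well and is given beside them. The second MALAT1 segment lies near the 3′ end, at the tRNA-like small RNA that is cut from the MALAT1 transcript. Sequences are from GRCh38, plus strand, 5′ to 3′, with no base marked.
NEAT1 segment 1 (ENSG00000278144), chr11:65423273-65423392: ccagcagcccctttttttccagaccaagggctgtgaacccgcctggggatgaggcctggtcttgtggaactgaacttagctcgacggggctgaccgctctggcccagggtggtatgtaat
NEAT1 segment 2 (ENSG00000278050), chr11:65423638-65423742: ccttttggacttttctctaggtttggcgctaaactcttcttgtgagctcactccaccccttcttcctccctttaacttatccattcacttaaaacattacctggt
NEAT1 segment 3 (ENSG00000277599), chr11:65423960-65424118: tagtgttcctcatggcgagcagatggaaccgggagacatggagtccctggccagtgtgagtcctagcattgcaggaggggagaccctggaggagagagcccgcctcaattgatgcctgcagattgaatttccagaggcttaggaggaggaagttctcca
MALAT1 segment 1 (ENSG00000278217), chr11:65502914-65503008: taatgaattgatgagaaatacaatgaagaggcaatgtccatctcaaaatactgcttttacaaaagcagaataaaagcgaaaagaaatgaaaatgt
MALAT1 segment 2 (ENSG00000274072), chr11:65506117-65506173: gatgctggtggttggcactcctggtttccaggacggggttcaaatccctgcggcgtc

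Values were in TPM, the length-corrected share of a library that a gene takes, so levels of different genes can be set side by side. Libraries held 908685 to 985497 listed TPM, and 14982 to 17578 genes had at least 1 TPM. Long noncoding RNAs made up 2.56% to 4.11% of listed TPM. Cell type markers were mostly as labelled: 5 of 5 pluripotent markers were at 1 TPM or more in hPSC, 5 of 5 endoderm markers in DE, 8 of 8 pancreatic progenitor markers in PP2, both ePP groups, DMSO and I-BET151, and 7 of 7 endocrine markers in SC-β and ePP-β. The β-like libraries also held 8 of 8 progenitor markers. TPM keeps no read number, so the depth is unknown. The 37 mitochondrial genes are at 0 throughout, and a 0 may therefore stand for a value that was never estimated.

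The members spanned a wide range of levels. GAS5 was the highest of the 8 in each of the 14 libraries, at 137 to 1083 TPM, and SNHG1 was the next in each, at 35.3 to 557 TPM. MALAT1 ranged from 10.1 to 202 TPM, NEAT1 from 0.647 to 158 TPM and HOTAIRM1 from 0.0383 to 55.0 TPM. MEG3 stayed between 0.0025 and 3.56 TPM, and H19 between 0 and 1.91 TPM. KCNQ1OT1 never passed 0.299 TPM in any library.

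**Figure D1:**
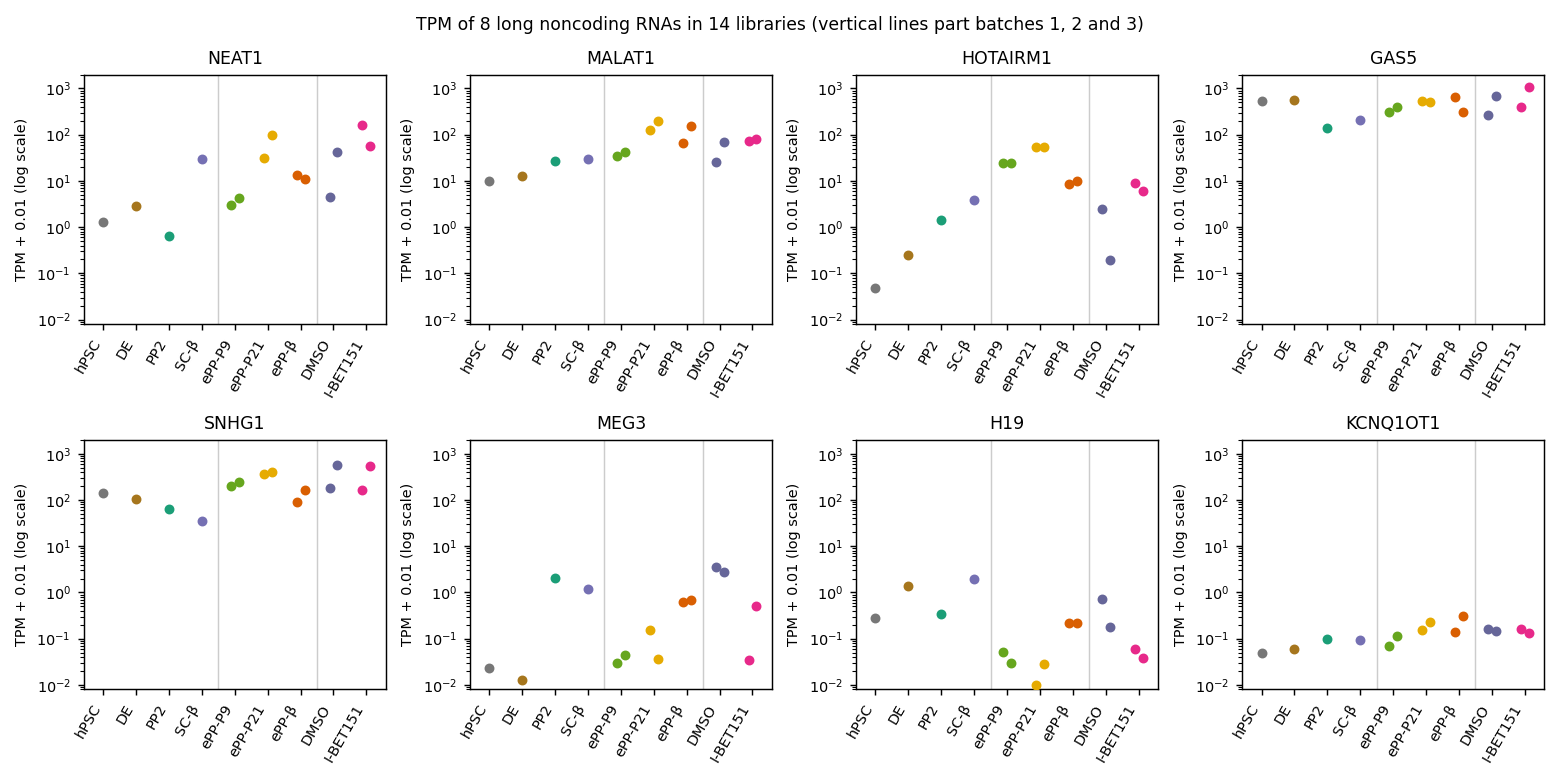
TPM + 0.01 on a log scale for each of the 8 members (panels), with 1 point per library, by group, and vertical lines between batches 1, 2 and 3. NEAT1, MALAT1 and HOTAIRM1 lie higher in both ePP-P21 libraries than in both ePP-P9 libraries, GAS5 and SNHG1 lie near the top of the scale throughout, and KCNQ1OT1 stays below 0.3 TPM. The H19 point of ePP-P21 replicate 1 is a value listed at 0.

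Between passages 9 and 21, the nuclear-body RNAs differed most. NEAT1 measured 3.01 and 4.23 TPM in ePP-P9, against 31.5 and 97.0 TPM in ePP-P21. The groups did not overlap, and the ratio of means was 17.75 (log2 difference 3.62). The ePP-P21 libraries themselves lay 3.08-fold apart. Leaving out 1 library at a time gave log2 differences of 2.83 (without ePP-P21 replicate 2) to 4.42 (without ePP-P21 replicate 1). In bulk RNA, more cells with a transcript and more of it per cell cannot be told apart.

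The separately quantified NEAT1 segments gave a smaller difference between the passages and, in ePP-P21, a narrower spread. Segment 1 measured 16.4 and 20.1 TPM in ePP-P9, against 69.4 and 71.6 TPM in ePP-P21. Segment 2 measured 18.1 and 27.4 TPM in ePP-P9, against 93.6 and 91.6 TPM in ePP-P21. Segment 3 measured 22.6 and 24.5 TPM in ePP-P9, against 76.5 and 93.3 TPM in ePP-P21. All 3 were higher in ePP-P21 with no overlap, but their ratios of means were 3.86, 4.07 and 3.60 where the gene value gave 17.75. In ePP-P9 the replicates of segment 2 lay 1.51-fold apart, more than the 1.40-fold of the gene value. The direction was thus shared by the gene value and the 3 segments, and the size was not. MIR612, a microRNA gene annotated in the part of NEAT1 that the long isoform alone covers (chr11:65444458-65444557), was listed at 0 and 0.854 TPM in ePP-P9, against 0.895 and 6.13 TPM in ePP-P21. Which reads the authors' assembly gave to the gene and which to its segments was not tested.

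MALAT1 measured 33.8 and 43.3 TPM in ePP-P9, against 125 and 202 TPM in ePP-P21. The groups did not overlap, and the ratio of means was 4.25 (log2 difference 2.03). Its first segment measured 39.1 and 50.6 TPM in ePP-P9, against 93.2 and 129 TPM in ePP-P21, a ratio of 2.48. The tRNA-like segment near the 3′ end measured 12.9 and 15.0 TPM in ePP-P9, against 7.63 and 22.6 TPM in ePP-P21. Its groups overlapped, with a ratio of 1.08. As that small RNA is cut from the transcript, its level is not a reading of the rest of MALAT1.

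**Figure D2:**
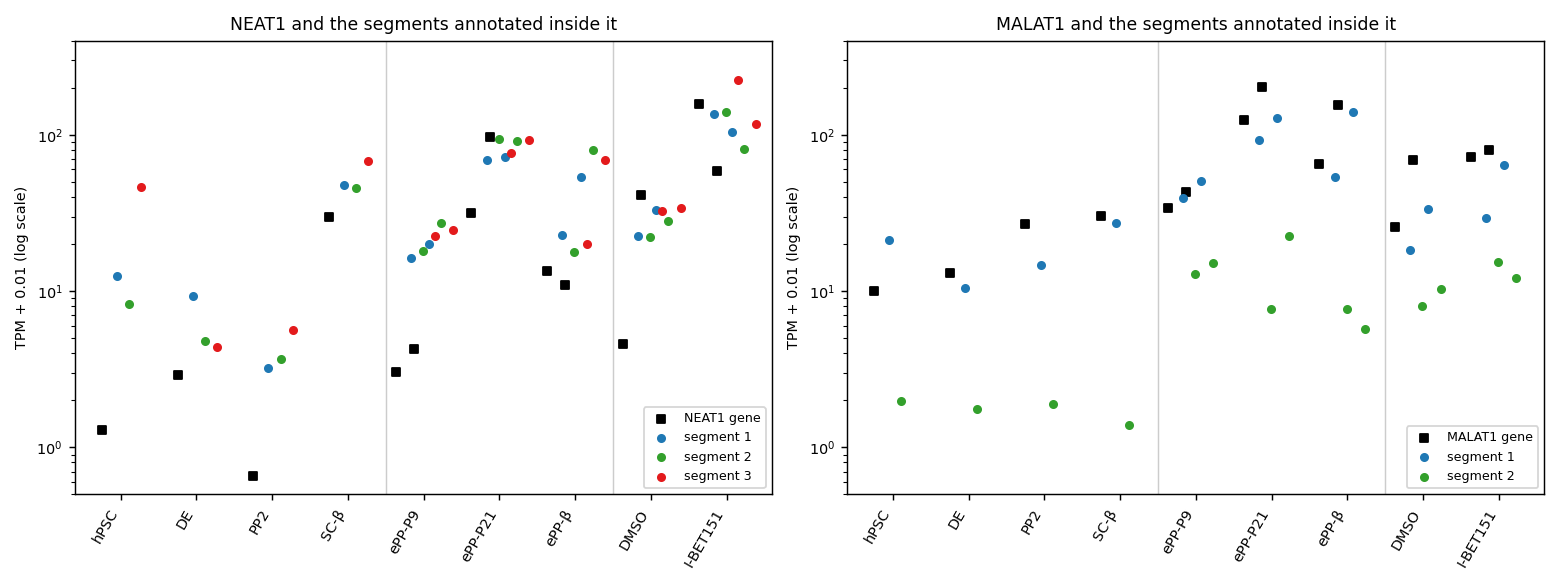
TPM + 0.01 on a log scale for the NEAT1 and MALAT1 gene values (black squares) and for the 3 NEAT1 and 2 MALAT1 segments (coloured circles), 1 point per library, by group. The NEAT1 gene value lies above its segments in ePP-P21 replicate 2 and DMSO replicate 2, and among them in I-BET151 replicate 1. In every other library it lies below them. The second MALAT1 segment lies below the MALAT1 gene value in every library.

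HOTAIRM1 had the closest replicates. It measured 24.3 and 23.8 TPM in ePP-P9, against 54.6 and 55.0 TPM in ePP-P21, with a ratio of means of 2.28 (log2 difference 1.16). Its 5 own segments, which are not independent of the gene value, differed by log2 0.42 to 1.44 in the same direction. The HOXA genes of the list were also higher in ePP-P21 in 8 of 8 that passed the filter, with no overlap in 7. Over all genes, 41.3% were higher with no overlap. HOXA2, a hindbrain patterning factor, measured 4.39 and 4.08 TPM in ePP-P9, against 9.55 and 8.12 TPM in ePP-P21.

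Of the snoRNA hosts, GAS5 measured 306 and 389 TPM in ePP-P9, against 527 and 504 TPM in ePP-P21, a ratio of 1.48. SNHG1 measured 200 and 245 TPM in ePP-P9, against 359 and 402 TPM in ePP-P21, a ratio of 1.71. Neither pair of groups overlapped. Of 18 further snoRNA hosts, 14 had a higher mean in ePP-P21 and 4 a lower one. SNHG12 (14.3 to 47.3 mean TPM) and ZFAS1 (217 to 477 mean TPM) were the 2 beyond a log2 difference of 1 with no overlap. Among all genes, 41.3% were higher with no overlap. A difference beyond 1 with no overlap was seen in 3.72% of all genes and 7.82% of long noncoding RNA genes. Nothing is read from the host counts. Ribosomal protein genes took a lower share of TPM in ePP-P21, at 20.9% and 19.9%, than in ePP-P9, at 23.4% and 22.0%.

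The imprinted members were close to 0 at both passages. MEG3 measured 0.020 and 0.034 TPM in ePP-P9, against 0.146 and 0.026 TPM in ePP-P21. H19 measured 0.041 and 0.020 TPM in ePP-P9, while 1 ePP-P21 library had 0.019 TPM and the other listed it at 0. KCNQ1OT1 measured 0.058 and 0.105 TPM in ePP-P9, against 0.145 and 0.220 TPM in ePP-P21. These 3 failed the filter of at least 1 TPM in at least 2 libraries, and no difference is read from such levels.

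Of the 5 members that passed the filter, all 5 were higher in ePP-P21 with no overlap, as were 41.3% of all 15822 genes tested. A difference beyond 1 on the log2 scale with no overlap was seen in NEAT1, MALAT1 and HOTAIRM1, in 3.72% of all genes and in 7.82% of 1713 long noncoding RNA genes. These counts come from the contrast on which the members were chosen, so nothing is read from them. The median log2 difference of all genes was 0.13. With each library centred on its median, HOTAIRM1 differed by 0.95, GAS5 by 0.37 and SNHG1 by 0.57.

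Genes tied to nuclear RNA processing were described in the same way. Of 16 transcripts known to keep introns in the nucleus, 16 were higher in ePP-P21, 13 with no overlap, with a median log2 difference of 0.75 against 0.13 over all genes. CCNL2, a cyclin that regulates splicing, measured 28.0 and 43.2 TPM in ePP-P9, against 125 and 124 TPM in ePP-P21. ARGLU1, a splicing coactivator, measured 57.3 and 79.5 TPM in ePP-P9, against 171 and 194 TPM in ePP-P21. The nuclear speckle and SR protein list was higher in 13 of 13 (median 0.21), and SRRM1 was the 1 beyond 1 (31.4 to 73.8 mean TPM). The paraspeckle proteins were split, with 7 higher and 6 lower (median 0.03). Of 22 targets of p53, a factor reported to induce NEAT1, 22 were higher, 18 with no overlap. Their median was 0.41, with none beyond 1. Over all genes, 41.3% were higher with no overlap. The lists were chosen with earlier results known, and the part of p53 in the NEAT1 values was not tested.

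The summed TPM of the 16 intron-keeping transcripts moved with MALAT1 in several groups. The sum was 1413 and 1910 in ePP-P9, 2511 and 2867 in ePP-P21, and 1162 and 2196 in ePP-β. The ePP-β library with the higher sum also held the higher MALAT1, at 155 against 64.6 TPM. In both ePP-P9 and ePP-P21, too, the library with the higher sum had the higher MALAT1. The yield of nuclear RNA was not measured, and the part of this shared movement in the values of MALAT1 and NEAT1 was not tested.

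**Figure D3:**
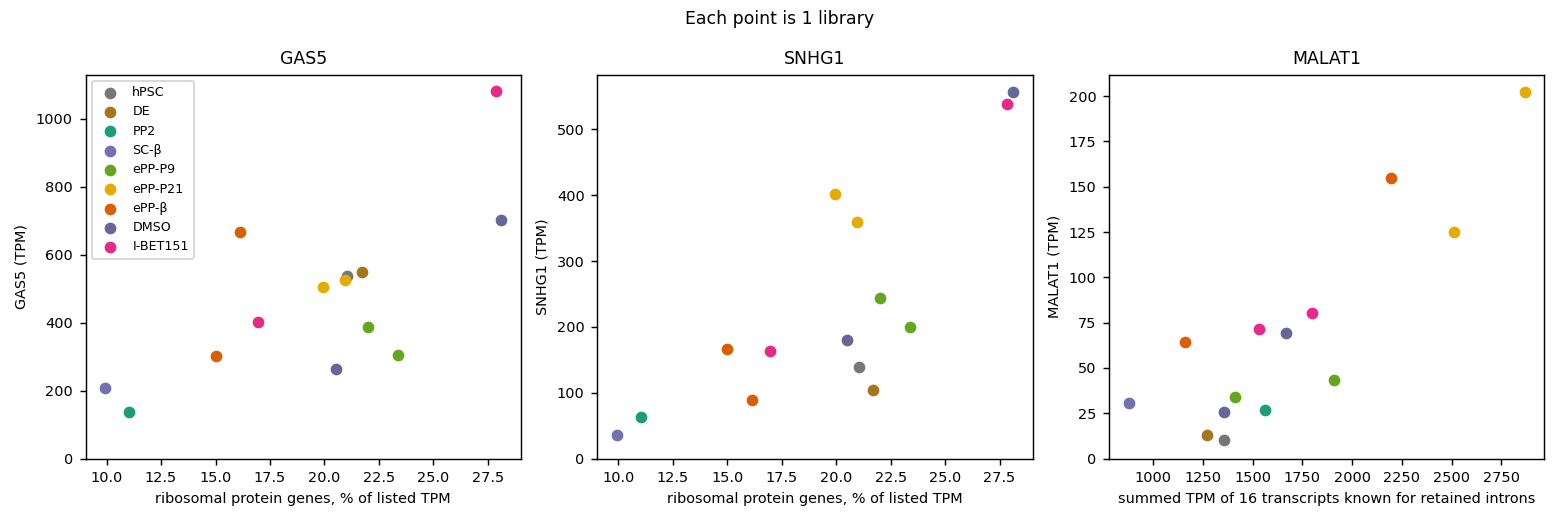
TPM of GAS5 and SNHG1 against the percent of listed TPM on 86 ribosomal protein genes, and TPM of MALAT1 against the summed TPM of 16 transcripts known for retained introns, with 1 point per library, coloured by group. DMSO replicate 2 and I-BET151 replicate 2 lie at the right of the GAS5 and SNHG1 panels, at 28.1% and 27.9%, and the ePP-P21 libraries lie at the upper right of the MALAT1 panel with ePP-β replicate 2.

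The 7-day treatment asked what BET inhibition does to pancreatic progenitors. A gene was called where limma gave an adjusted p under 0.05 and the log2 fold change was larger than 1 in size. By this rule 0 of the 6 members that passed the filter were called, against 0.21% of all 16687 genes (0.00599% higher, 0.204% lower) and 0 of 1795 long noncoding RNA genes. An unadjusted p under 0.05 was found for 2 of the 6, HOTAIRM1 and MEG3, and for 15.2% of all genes. NEAT1, MALAT1 and HOTAIRM1 were higher with no overlap, as were 28.7% of all genes, and MEG3 was lower with no overlap, as were 18% of all genes. MEG3 passed the filter only through DMSO, where it was high, and HOTAIRM1 would have passed on the I-BET151 libraries alone.

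NEAT1 measured 4.58 and 41.3 TPM in DMSO, against 158 and 58.2 TPM in I-BET151. The groups did not overlap, but the DMSO libraries lay 9.01-fold apart, and the log2 difference of 2.66 (SE 1.06) had an adjusted p of 0.334 in limma. Single libraries decided the call: without DMSO replicate 2 the difference was 4.12 and was called (adjusted p = 0.0076), and without I-BET151 replicate 2 it was 3.37 and was called (adjusted p = 0.0044). Without DMSO replicate 1 it was 1.20.

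In the NEAT1 segments, the DMSO libraries were close together. Segment 1 measured 22.4 and 33.2 TPM in DMSO, against 135 and 104 TPM in I-BET151. Segment 2 measured 22.3 and 28.2 TPM in DMSO, against 141 and 81.6 TPM in I-BET151. Segment 3 measured 32.4 and 34.2 TPM in DMSO, against 224 and 116 TPM in I-BET151. Replicates within DMSO thus lay 1.06 to 1.48-fold apart, against 9.01-fold in the gene value. The I-BET151 means were 4.31, 4.40 and 5.12 times those of DMSO, close to the 4.72 of the gene value. The log2 differences were 2.08, 2.05 and 2.25 (limma unadjusted p of 0.0019, 0.0032 and 0.0027), and none of the 3 passed the adjusted threshold. The 3 segments lie close together in NEAT1 and share its libraries, so these are not 3 independent results. MIR612 measured 1.49 and 1.71 TPM in DMSO, against 2.35 and 19.6 TPM in I-BET151. Its I-BET151 replicates were thus far apart, and the higher library was not the one with the higher NEAT1 gene value. From this short gene, mostly at low values, no level of the long isoform is read.

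MALAT1 measured 25.7 and 69.0 TPM in DMSO, against 71.6 and 80.2 TPM in I-BET151. The groups lay next to each other without overlap, and the log2 difference was 0.83 (95% interval -0.51 to 2.17, adjusted p = 0.518 in limma). HOTAIRM1 measured 2.44 and 0.189 TPM in DMSO, against 8.89 and 6.17 TPM in I-BET151. The groups did not overlap, and the log2 difference was 2.06 (95% interval 0.58 to 3.54, adjusted p = 0.203 in limma). Leaving out 1 library at a time gave differences of 1.29 (without DMSO replicate 2) to 2.82 (without DMSO replicate 1). HOTAIRM1 was called in some of these fits and not in others. Of 9 HOXA genes in the list, 6 passed the filter, 6 had a positive difference and 4 had an unadjusted p under 0.05, with 0 called. HOXA3, which patterns pharyngeal organs, measured 2.13 and 0.443 TPM in DMSO, against 11.0 and 6.22 TPM in I-BET151.

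MEG3 measured 3.56 and 2.74 TPM in DMSO, against 0.025 and 0.489 TPM in I-BET151. The groups did not overlap, and the log2 difference was -1.74 (95% interval -2.59 to -0.89, adjusted p = 0.112 in limma). As MEG3 passed the filter only through DMSO, it had to differ, and nothing is read from its interval or p. The difference was -1.47 without I-BET151 replicate 1 and -2.01 without I-BET151 replicate 2. Without either DMSO library, MEG3 no longer passed the filter. DLK1, the paternally expressed partner of MEG3 and a Notch-related ligand, fell from 995 and 902 TPM to 82.4 and 93.9 TPM (log2 fold change -3.41, SE 0.30, adjusted p = 0.048). DLK1 was the 1 of 15 imprinted partners called, against 0.204% of all genes called lower. With a pseudocount of 0.1 or 0.01, or with no filter, no gene was called, so the DLK1 call was lost there. RTL1, a retrotransposon-derived gene of the same region, measured 4.68 and 1.44 TPM in DMSO, against 0.128 and 0.027 TPM in I-BET151. It was not called (adjusted p = 0.181 in limma), and it also passed the filter only through DMSO. Hepatic markers moved with MEG3 here. The summed TPM of the 4 (AFP, ALB, APOA1, TTR) was 9798 and 8514 in DMSO and 984 and 2330 in I-BET151, 4 of 4 were at 1 TPM or more in each library, and their part in the MEG3 values was not tested. The 2 genes whose log2(TPM + 1) followed MEG3 most closely over the 14 libraries were the liver genes ASGR2 (Pearson r = 0.98) and SERPINC1 (r = 0.955).

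The MEG3 promoter is shown because its partner DLK1 was called lower in the fit as reported, although MEG3 itself was not called. It is the RefSeq window from 250 bases before to 50 bases after a MEG3 start on GRCh38.p14, chr14:100825858-100826157, plus strand, 5′ to 3′. Capitals mark CCAAT, the cAMP response element TGACGTCA and the TATA box TATAAA. TGACGTCA and CCAAT were searched on both strands, and TATAAA on the given strand. Of 35116 windows of this length, 1.85% held TGACGTCA, 7.33% TATAAA and 34.6% CCAAT.
MEG3 promoter: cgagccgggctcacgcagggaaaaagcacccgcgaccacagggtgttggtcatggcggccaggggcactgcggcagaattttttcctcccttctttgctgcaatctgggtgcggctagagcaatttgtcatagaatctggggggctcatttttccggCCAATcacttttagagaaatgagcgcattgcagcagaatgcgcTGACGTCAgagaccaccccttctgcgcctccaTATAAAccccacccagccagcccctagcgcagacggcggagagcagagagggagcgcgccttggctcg
A match is a description of the letters and not of a bound site. RefSeq windows were found for 5 of the 8 members, the others being NEAT1, HOTAIRM1 and KCNQ1OT1.

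**Figure D4:**
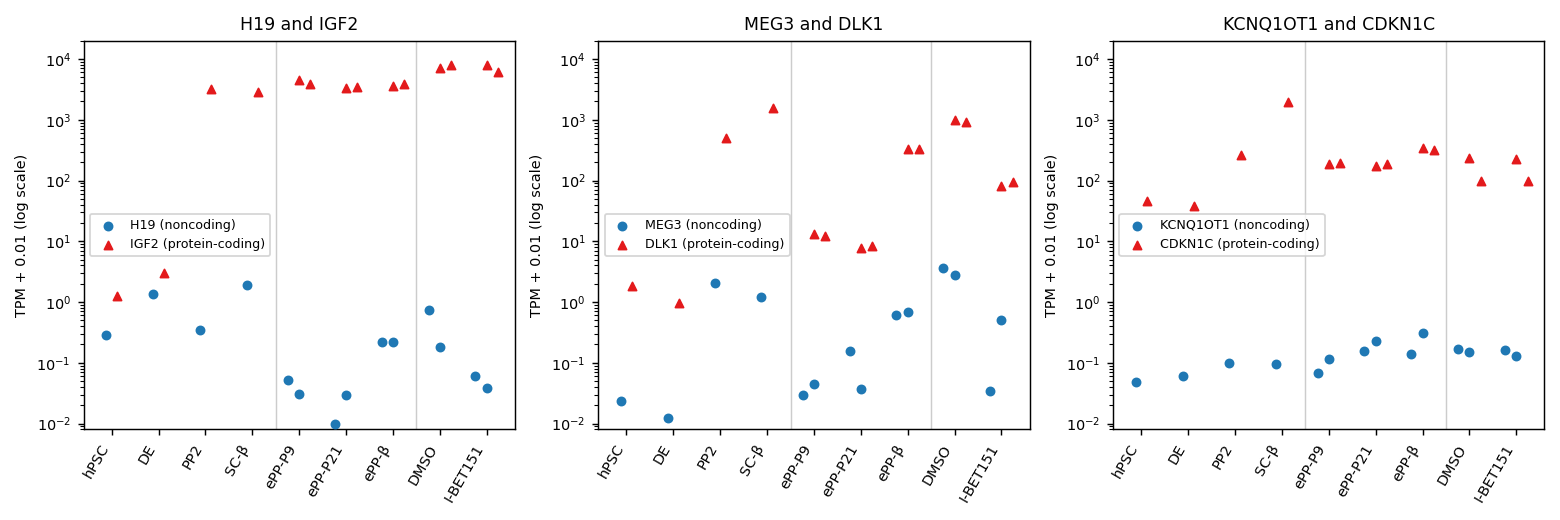
TPM + 0.01 on a log scale for the imprinted noncoding members (circles) and their protein-coding partners (triangles), with 1 point per library, by group. MEG3 and DLK1 are both low in hPSC, DE and ePPs and both higher in PP2, SC-β, ePP-β and DMSO, whereas H19 stays below 2 TPM in every group, including those where IGF2 is at 2829 TPM or more.

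H19 measured 0.727 and 0.171 TPM in DMSO, against 0.050 and 0.029 TPM in I-BET151, and failed the filter. IGF2, its fetal growth factor partner, which overlaps the readthrough gene INS-IGF2, measured 7142 and 7883 TPM in DMSO, against 8052 and 6107 TPM in I-BET151. KCNQ1OT1 measured 0.155 and 0.138 TPM in DMSO, against 0.150 and 0.120 TPM in I-BET151, and failed the filter. CDKN1C, a cell cycle inhibitor, measured 234 and 98.7 TPM in DMSO, against 222 and 98.5 TPM in I-BET151.

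GAS5 and SNHG1 differed more between replicates than between treatments. GAS5 measured 263 and 702 TPM in DMSO, against 403 and 1083 TPM in I-BET151. SNHG1 measured 180 and 557 TPM in DMSO, against 163 and 539 TPM in I-BET151. Replicate 2 was 2.67 and 2.69 times replicate 1 for GAS5, and 3.10 and 3.31 times for SNHG1. The 95% interval of the log2 difference between treatments was -1.16 to 2.40 for GAS5 and -2.13 to 1.95 for SNHG1 (limma adjusted p of 0.733 and 0.970), and the sign of each turned when single libraries were left out. Ribosomal protein genes took 20.5% and 28.1% of TPM in DMSO and 16.9% and 27.9% in I-BET151, so both replicate 2 libraries were high in these too. Of 18 further snoRNA hosts, 14 were higher in replicate 2 within DMSO and 14 within I-BET151, against 45.6% and 46.7% of all genes. The part of this shared movement in the GAS5 and SNHG1 values was not tested.

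The lists of nuclear-body proteins had small positive differences in I-BET151. Paraspeckle proteins were higher in 13 of 13, with a median of 0.43 against 0.16 over all genes, and 0 were called in limma (1 at an unadjusted p under 0.05). Speckle and SR proteins were higher in 13 of 13 (median 0.57, 0 called, 0 at an unadjusted p under 0.05). Nonsense-mediated decay factors were higher in 13 of 14 (median 0.61, 0 called, 3 at an unadjusted p under 0.05). The p53 targets were split 11 to 11 with a median of -0.04. Ribosomal protein genes were lower in 66 of 84 (median -0.17, 0 called and 0 at an unadjusted p under 0.05).

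Differentiation of ePPs into ePP-β cells separated the members. The ePP level is the mean of both passages, whose libraries were known when the members were chosen. HOTAIRM1 and SNHG1 fell, 2 of 5 members that passed the filter, against 9.86% of all 18076 genes called lower (27.8% in either direction) and 7.3% of 2178 long noncoding RNA genes. None of the 5 was called higher, against 17.9% of all genes and 16.8% of long noncoding RNA genes.

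HOTAIRM1 was at 8.55 and 10.2 TPM in ePP-β, below each of the 4 ePP libraries. It fell by 1.85 on the log2 scale (SE 0.10, limma adjusted p = 4.41e-05), and its 5 segments were called lower as well. They lie inside HOTAIRM1 on the same strand, so they are not independent of its value. HOTAIRM1 fell with its cluster, in which 6 of 8 HOXA genes that passed the filter were called lower. HOXA3 fell from a mean of 13.7 to 3.30 TPM (log2 fold change -1.74), HOXA5 from 13.4 to 3.46 TPM (-1.70), and the antisense RNA HOXA-AS2 from 7.48 to 1.24 TPM (-2.04). HOXA-AS3 fell from 5.28 to 0.070 TPM (-2.54). Both antisense RNAs, which are among the 6, passed the filter through the ePP libraries alone, where they were high. HOXA4 and HOXA7 were not called.

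SNHG1 was at 88.2 and 166 TPM in ePP-β, below the lowest ePP library at 200 TPM. It fell by 1.25 on the log2 scale (SE 0.25, limma adjusted p = 0.00652). ePP-β replicate 1 decided the size of this: without it the difference was -0.80 and the gene was no longer called. The 7 snoRNA genes inside SNHG1 were each called lower, by 1.43 (SNORD25) to 2.32 (SNORD30) on the log2 scale. Reads of the unspliced host cannot be told apart here from reads of the snoRNAs, so these are not independent of the SNHG1 value. GAS5 was at 667 and 303 TPM in ePP-β, a range that spans all 4 ePP libraries (log2 difference 0.09, 95% interval -0.65 to 0.84, adjusted p = 0.811). Of 18 further snoRNA hosts, SNHG3 (63.9 to 19.8 mean TPM) and SNHG4 (27.0 to 5.39 mean TPM) fell and none rose. Over all genes, 9.86% were called lower and 17.9% higher. Ribosomal protein genes took 16.1% and 15.0% of TPM in ePP-β, below the 19.9% to 23.4% of ePPs.

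NEAT1 in ePP-β, at 13.4 and 10.9 TPM, lay between both passages: 3.36 times the ePP-P9 mean and 0.19 times the ePP-P21 mean. Against the mean of both, the log2 difference was -0.30 (95% interval -1.35 to 0.76, adjusted p = 0.584). Its segments were further apart than the gene value here, at 22.8 and 53.5 TPM for segment 1, 17.9 and 80.2 TPM for segment 2 and 20.1 and 69.2 TPM for segment 3. The ePP-β libraries thus lay 1.23-fold apart in the gene value and 2.35 to 4.49-fold apart in the segments. MALAT1, at 64.6 and 155 TPM, gave a log2 difference of 0.35 (95% interval -0.57 to 1.27, adjusted p = 0.456).

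MEG3, H19 and KCNQ1OT1 failed the filter in this comparison. MEG3 was at 0.609 and 0.687 TPM in ePP-β, above all 4 ePP libraries, the highest of which was 0.146 TPM. H19 was at 0.206 and 0.212 TPM and KCNQ1OT1 at 0.130 and 0.299 TPM. Of 15 imprinted partners that passed, 4 rose and none fell, against 17.9% of all genes called higher and 9.86% called lower. DLK1 rose from a mean of 10.4 to 329 TPM (log2 fold change 4.88, SE 0.09, adjusted p = 2.59e-06). DIO3, which inactivates thyroid hormone, rose from 0.014 to 7.58 TPM and RTL1 from 0.048 to 5.24 TPM. Both passed the filter only through ePP-β, where they were high, so they had to differ. SLC22A18, a transporter of the KCNQ1OT1 region, rose from 2.41 to 6.43 TPM. Hepatic markers stood at 163 to 191 summed TPM in ePPs and at 14710 and 17370 in ePP-β, most of it TTR, which islet cells also make. AFP, at 744 and 780 TPM in ePP-β, and APOA1, at 900 and 994 TPM, were higher as well. All 4 markers were called higher, against 17.9% of all genes, though ALB passed the filter only through ePP-β. Their part in the MEG3 and DLK1 values was not tested.

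Among genes that work with the nuclear-body RNAs, those called in ePP-β were mostly lower. Over all genes, 9.86% were called lower and 17.9% higher. The paraspeckle, intron-keeping and decay counts below lie near the share called lower, and nothing is read from them. Of 13 paraspeckle proteins, 2 were called, and RBMX fell by 1.21 on the log2 scale. Of 13 speckle and SR proteins, 5 fell, led by SRRM1 (by 1.36) and U2AF2 (by 1.33), a subunit of the factor that recognises the 3′ splice site. Of 16 intron-keeping transcripts 1 fell, DDX39B, an RNA helicase (by 1.32). SMG6, an endonuclease of nonsense-mediated decay, and SMG9 fell, 2 of 14 decay factors. Of the 22 p53 targets, 10 fell and 2 rose. TNFRSF10B, a death receptor, fell by 2.17, MDM2, the ubiquitin ligase that limits p53, by 1.74, and CDKN1A, a cell cycle inhibitor, by 1.57. GDF15, a stress cytokine, rose by 1.61 and TP53INP1 by 1.01. Of 10 neighbours of NEAT1 and MALAT1, LTBP3 and EHBP1L1 rose and POLA2 and TIGD3 fell. The median of all genes was -0.03, and -0.17 after median centring.

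**Figure D5:**
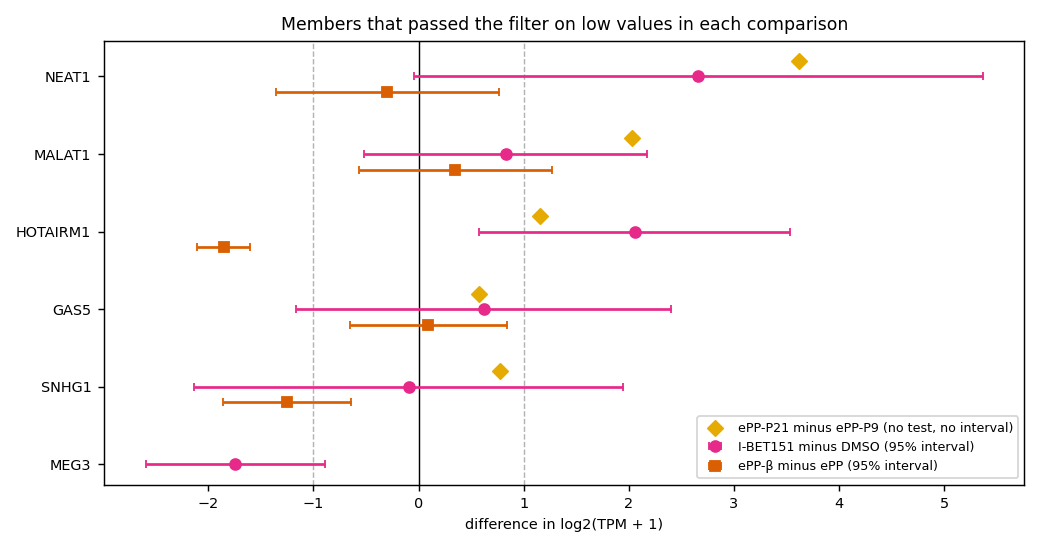
Difference in log2(TPM + 1) for the members that passed the filter on low values, in the 3 comparisons. Diamonds are ePP-P21 minus ePP-P9, with no test. Circles (I-BET151 minus DMSO) and squares (ePP-β minus ePP) carry 95% intervals from limma, n = 2 to 4 libraries a side, and dashed lines mark a difference of 1. HOTAIRM1 lies to the right of 0 in ePP-P21 and I-BET151 and to the left in ePP-β.

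Along the stages made directly from stem cells, each with 1 library and no replicate check, the members took different courses. MALAT1 stood at 10.1 TPM in hPSC, 13.0 TPM in DE, 26.7 TPM in PP2 and 30.4 TPM in SC-β. NEAT1 stood at 1.27, 2.91 and 0.647 TPM in hPSC, DE and PP2 and at 29.8 TPM in SC-β, 46.1 times PP2. In the 3 NEAT1 segments the PP2 values were 3.22, 3.69 and 5.59 TPM and the SC-β values 47.8, 45.5 and 68.3 TPM, so the rise between these stages was seen in each reading. Earlier steps were not shared. The hPSC and DE values were 12.6 and 9.27 TPM in segment 1, 8.30 and 4.76 TPM in segment 2 and 46.2 and 4.35 TPM in segment 3, each lower in DE, where the gene value was higher in DE. From DE to PP2 segment 3 was slightly higher, where the gene value was lower. HOTAIRM1 stood at 0.038, 0.238, 1.43 and 3.90 TPM over the same 4 stages. Background shares beyond a log2 difference of 1 were 8.87% higher and 13.5% lower for DE over hPSC, 26.5% higher and 8.36% lower for PP2 over DE, and 9.45% higher and 22.1% lower for SC-β over PP2.

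GAS5 stood at 537 TPM in hPSC, 549 TPM in DE, 137 TPM in PP2 and 208 TPM in SC-β. SNHG1 was at 139, 104, 63.1 and 35.3 TPM. Ribosomal protein genes took 21.04% of TPM in hPSC, 21.7% in DE, 11.0% in PP2 and 9.94% in SC-β, so the stages low in GAS5 and SNHG1 were low in these as well. MEG3 was at 0.013 TPM in hPSC, 0.0025 TPM in DE, 2.03 TPM in PP2 and 1.21 TPM in SC-β. DLK1 stood at 1.82, 0.965, 499 and 1574 TPM over these stages. H19 was at 0.275, 1.36, 0.330 and 1.91 TPM, where IGF2 was at 1.26, 2.98, 3178 and 2829 TPM. Mesenchymal markers summed to 1570 TPM in PP2 and 2802 TPM in SC-β, with 10 of 10 at 1 TPM or more, against 47.4 to 258 in batches 2 and 3. Their part in the PP2 and SC-β values was not tested.

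Across all groups, ordered by mean TPM, NEAT1 was highest in I-BET151 (108) and ePP-P21 (64.2), whose libraries overlapped, then SC-β (29.8), DMSO (22.9) and ePP-β (12.2), of which DMSO overlapped both others. It was lower, with no overlap with these, in ePP-P9 (3.62), DE (2.91), hPSC (1.27) and PP2 (0.647). This order is that of the gene value: in segment 3, hPSC (46.2) stood above ePP-P9 (23.6), DMSO (33.3) and ePP-β (44.6). MALAT1 ran from ePP-P21 (164) through ePP-β (110) to I-BET151 (75.9), each overlapping the next, and down to hPSC (10.1). HOTAIRM1 was highest in ePP-P21 (54.8) and ePP-P9 (24.0), with no overlap, followed by ePP-β (9.37) and I-BET151 (7.53), which overlapped. GAS5 was highest in I-BET151 (743), whose libraries spanned those of the next groups, DE (549), hPSC (537) and ePP-P21 (515), and lowest in PP2 (137). SNHG1 had ePP-P21 (381), DMSO (369), I-BET151 (351) and ePP-P9 (222) at the top, each overlapping the next, and SC-β (35.3) at the bottom. MEG3 was highest in DMSO (3.15) and PP2 (2.03), and H19 in SC-β (1.91) and DE (1.36). KCNQ1OT1 ran from 0.214 TPM in ePP-β to 0.0385 TPM in hPSC, and its first 4 groups in that order overlapped in turn. These orders set levels across batches.

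Side by side, the ePP libraries and PP2 differed in several members. HOTAIRM1 was at 23.8 to 55.0 TPM in ePPs and 1.43 TPM in PP2, and MEG3 at 0.020 to 0.146 TPM in ePPs and 2.03 TPM in PP2. GAS5 was at 306 to 527 TPM in ePPs and 137 TPM in PP2. Of the β-like cells, ePP-β had 64.6 and 155 TPM of MALAT1 and SC-β 30.4 TPM, while NEAT1 measured 13.4 and 10.9 TPM in ePP-β, against 29.8 TPM in SC-β. Batch and group cannot be told apart in these pairs.

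Genes whose levels followed a member most closely over the 14 libraries were ranked by Pearson r of log2(TPM + 1) among 20575 genes, as a description over libraries that share batches. NEAT1 was followed most closely by its own segments 1 (r = 0.914) and 2 (r = 0.864), then by MIR6834, SMBD1P and MUC20P1 (r = 0.844, 0.826 and 0.822), which stayed below 7.1 TPM. MALAT1 was followed by NIT2 (r = 0.931), an amidase, and the pseudogene CCT6P3 (r = 0.925). HOTAIRM1 was followed by 2 of its own segments (r = 0.988 and 0.980). SNHG1 was followed by SNORD25 (r = 0.96), a snoRNA in its own intron, and TMEM69 (r = 0.949). For GAS5 the nearest were SPTSSA (r = 0.894) and BOLA2 (r = 0.855), and for H19 they were TBXA2R (r = 0.959) and CA5B (r = 0.936).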

How the data were processed

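RNA of 14 MEL1 libraries was analysed. The authors purified total RNA on columns, used the NEBNext Ultra kit, sequenced both fragment ends, aligned reads to GRCh38 with HISAT2, assembled with StringTie and summed transcripts per gene identifier. The deposited values are TPM and were not scaled again. How RNA was selected, which annotation release was used and whether counting used strand are not given in the sources used here. TPM keeps no depth.

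Identifiers were matched to GENCODE 44 (60370 of 60624), whose lengths may differ from the authors' annotation. Groups came from sample titles. Genes at 1 TPM or more in at least 2 libraries of a fit were tested on log2(TPM + 1), which understates changes of low genes, with limma 3.58.1 in R 4.3.3 (lmFit, eBayes with trend, two-sided). A gene was called at a Benjamini-Hochberg adjusted p under 0.05 and a log2 fold change beyond 1. The pipeline was tested on simulated data. The members and the gene lists were chosen with earlier results of these data known. Named list genes are those called, up to 4 per list and direction (at least 5 TPM in the higher group), with others in the text chosen after their values were seen. Some genes of the lists are not reported here. Alternatives were the pseudocount, the filter, centring, quantile normalization, a replicate block, a joint fit of 10 libraries, leaving out each library and, added after seeing the data, rescaling without ribosomal protein genes.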

Additional observations from a re-analysis of the deposited data

How the results depend on the processing

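The counts over all genes for I-BET151 against DMSO (1 higher, 34 lower) were fragile. They became 0 and 0 with a pseudocount of 0.1 or 0.01 or with no filter (limma, with 2462, 2417 and 4535 genes at an unadjusted p under 0.05), 119 lower with median centring, 3 and 135 with quantile normalization, 518 and 1155 in the joint fit of 10 libraries, 2 and 113 without ribosomal protein genes (added after seeing the data), and 7 to 283 higher and 100 to 751 lower leaving out 1 library. A fit with the replicate number as a block gave 828 and 1466, with HOTAIRM1 (adjusted p = 0.0192) and MEG3 (adjusted p = 0.0228) called. The replicate differences of both groups correlated across genes at 0.675, but 2 pairs that share only a number do not establish a pairing. Among ePP groups this was -0.004 to 0.044, and the block changed no member's call. HOTAIRM1 and MEG3 were also called in the joint fit (limma adjusted p of 0.0242 and 0.00254). In the block fit and the joint fit, MEG3 passed the filter only through DMSO, where it was high, so nothing is read from its calls. GAS5 turned without DMSO replicate 1 (-0.087) or I-BET151 replicate 2 (-0.094), with a range of -0.094 to 1.33 leaving out 1 library, and SNHG1 turned without DMSO replicate 2 (0.72) or I-BET151 replicate 1 (0.77), with a range of -0.95 to 0.77. Where a group kept 1 library, that library was assumed to vary like the other group. The causes were not tested.

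For ePP-β against ePP (3237 higher, 1783 lower), the counts were 2058 higher with a filter of 5 TPM, 2866 lower with quantile normalization, 5276 and 5105 by adjusted p alone, and 1623 to 3273 higher and 1656 to 2001 lower leaving out 1 library. Higher genes made up 64.5% of calls, 55.2% with median centring and 47.5% with quantile normalization. GAS5 turned to -0.043 with median centring, -0.013 without ribosomal protein genes and -0.47 without ePP-β replicate 1 (range -0.47 to 0.66 leaving out 1 library), NEAT1 to 0.10 without ePP-P21 replicate 2 (range -0.69 to 0.10), and MALAT1 to -0.27 without ePP-β replicate 2 (range -0.27 to 0.98). The SNHG1 call was lost with no filter (adjusted p = 0.0501), in the joint fit (0.126) and without ePP-β replicate 1. The HOTAIRM1 call held in every alternative run.

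For ePP-P21 against ePP-P9 (588 higher, 61 lower beyond 2-fold with no overlap), the counts were 1118 and 157 or 1189 and 164 with a pseudocount of 0.1 or 0.01, 331 and 16 with a filter of 5 TPM, 310 and 117 with median centring, 293 and 123 with quantile normalization, and 469 to 859 and 67 to 128 leaving out 1 library. Higher genes were 90.6% of these, 72.6% with median centring and 70.4% with quantile normalization. Among single libraries, DE over hPSC gave 2403 higher with a pseudocount of 0.01 (1559 as reported), PP2 over DE 2579 and 2892 with median centring and 2654 and 2662 with quantile normalization (4664 and 1469), and SC-β over PP2 2774 and 1936 with median centring and 2424 lower with quantile normalization (1660 and 3883). TPM holds no read counts, so the limit that depth sets is unknown.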
